A study of Mus musculus with 18 samples.

Results

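The 10 genes described here encode secreted signals of the transforming growth factor beta (TGF-beta) superfamily, their extracellular antagonists and 1 of their nuclear targets. They were taken by symbol from a table of read counts with 55401 gene identifiers, and all 10 were found and passed the filter on low counts in every comparison. They comprise the 3 TGF-beta ligands Tgfb1, Tgfb2 and Tgfb3, the activin subunit gene Inhba, the bone morphogenetic protein (BMP) ligands Bmp2 and Bmp4, the antagonists Grem1, Fst and Nog, and the target Id1.

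TGF-betas and activins bind pairs of serine/threonine kinase receptors that phosphorylate one set of SMAD transcription factors, whereas BMPs act through a related set of receptors and SMADs. Gremlin 1 (Grem1) and noggin (Nog) bind BMPs outside the cell, and follistatin (Fst) binds activins most tightly. In fibroblasts TGF-beta is known for inducing collagen and contractile genes, BMPs for inducing Id genes, and both TGF-beta and activin belong to the secretory programme of senescent cells.

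The samples were mouse embryonic fibroblasts (MEFs), primary cells grown from embryos, in 2 series of 9 libraries. In the S6K1 series, wild-type (WT) cells carried an empty vector (EV) or constitutively active HRAS (RAS), and S6K1 knockout (KO) cells carried RAS. The other series, named S6K1/S6K2, compared WT cells with either vector and RAS cells that lacked both kinases (double knockout, DKO). Each of the 6 groups had 3 libraries, cells were infected with retrovirus and selected with puromycin, and oncogenic RAS was used as a trigger of senescence. The methods name pBABEpuro for the empty vector and MSCV-neo for RAS, so a difference in backbone and the presence of RAS cannot be told apart if these cultures carried those vectors. S6K1 and S6K2 are ribosomal protein S6 kinases, which act downstream of mTORC1. S6K1 KO cells and their WT cells came from littermates, and WT cells of the other series came from other mothers than the DKO cells. The KO and DKO cells were sequenced with RAS alone here, so an effect of the loss without RAS was not analysed, and each replicate is the MEF culture its number names.

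Library totals ranged from 8319445 to 14402442 counts. Levels are given as CPM (counts scaled to a common library size), scaled by the trimmed mean of M values (TMM) within a series. All 10 fibroblast markers were detected in every library, with summed levels from 24082 to 57135 CPM. Macrophage markers (15 genes) were also present in every library, and their sum was 661 to 3290 CPM in S6K1 WT EV, 751 to 3835 in S6K1 WT RAS and 251 to 888 in S6K1 KO RAS. For S6K1/S6K2 libraries that sum spanned 163 to 1448 CPM (WT EV), 182 to 1052 (WT RAS) and 74.7 to 245 (DKO RAS). Other marker sums also differed between vectors. In the 6 EV libraries against the 12 RAS libraries, epithelial markers summed to 8.03 to 18.3 CPM against 88.3 to 237, neural markers to 56.3 to 100.5 against at most 30.2, muscle markers to 8.54 to 86.2 against 73.8 to 232, and endothelial markers to 7.16 to 10.2 against 8.26 to 15.8. In WT means with RAS, every epithelial marker was higher in both series. Krt18 went from 6.36 to 128 CPM (S6K1 series) and from 1.69 to 90.6 (S6K1/S6K2 series). Krt19 went from 5.99 to 16.6 and from 7.29 to 38.9 CPM, and Cldn4 from 0.268 to 8.63 and from 0.145 to 20.7. Krt8 reached 6.04 and 2.73 CPM, and Epcam and Cdh1 rose to no more than 1.14. Acta1 went from 45.4 to 135 and from 10.5 to 117 CPM, and Myod1 had 0 counts. The neural markers Tubb3 and Map2 fell in both series, whereas Snap25 rose, from 0 to 2.49 and from 0.438 to 8.04 CPM. The part of these markers in the RAS results below was not tested. In bulk RNA, fewer cells of a type and less RNA per cell cannot be told apart. Reads from the kinase genes followed the labels: Rps6kb1 (S6K1) was 68.9 ± 6.7 CPM (SD, n = 3) in WT RAS and 30.6 ± 6.7 in KO RAS, and Rps6kb2 (S6K2) was 25.8 ± 2.7 in WT RAS and 2.83 ± 0.19 in DKO RAS. Replicate 1 of S6K1/S6K2 WT EV stood apart from the other 2 cultures of its group for several of the genes below (Id1 at 161 CPM against 63.9 and 64.7). Some of the RAS changes of that series are given with and without it, and the rest with it alone.

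RefSeq promoter sequences (assembly GRCm38.p6) were at hand for 5 of the 10 genes: Tgfb1, Tgfb2, Inhba, Bmp4 and Grem1. The 250 bases before the transcription start are shown for Tgfb2 and Grem1, which moved in opposite directions with RAS in both series, and for Inhba, the activin gene. Capitals mark matches, on either strand, to the motifs searched: TATAAA (a core promoter box), CACGTG (E-box), GGGCGG (GC box), GGCGCC (a GC-rich SMAD element), TGANTCA (AP-1), TGACGTCA (CRE) and GTCTAGAC (a SMAD palindrome).
Tgfb2, chr1:186705990-186706239, minus strand: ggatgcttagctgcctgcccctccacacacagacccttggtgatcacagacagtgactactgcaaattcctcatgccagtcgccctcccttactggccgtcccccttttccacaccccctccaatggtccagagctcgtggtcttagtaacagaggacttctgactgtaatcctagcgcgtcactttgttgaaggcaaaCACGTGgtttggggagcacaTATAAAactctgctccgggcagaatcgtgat
Inhba, chr13:16011601-16011850, plus strand: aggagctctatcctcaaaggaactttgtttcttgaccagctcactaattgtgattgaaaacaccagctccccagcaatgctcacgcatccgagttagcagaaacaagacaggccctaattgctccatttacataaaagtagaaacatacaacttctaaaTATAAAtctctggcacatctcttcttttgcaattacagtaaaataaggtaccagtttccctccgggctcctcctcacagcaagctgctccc
Grem1, chr2:113758649-113758898, minus strand: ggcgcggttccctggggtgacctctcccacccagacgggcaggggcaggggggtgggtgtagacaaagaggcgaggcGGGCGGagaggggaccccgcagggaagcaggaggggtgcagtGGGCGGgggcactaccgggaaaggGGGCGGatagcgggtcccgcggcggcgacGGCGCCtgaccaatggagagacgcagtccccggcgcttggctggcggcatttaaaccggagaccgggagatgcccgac
Tgfb2 had a TATA box that began 31 bases before the start and an E-box 51 bases before it. Inhba had a TATAAA match 91 bases before the start, and Grem1 had no TATAAA but 3 GC boxes (173, 131 and 107 bases before the start) and 1 GGCGCC (78 bases before). Of all 27025 promoter windows of this length, 13.0% held TATAAA, 6.05% the E-box, 32.9% the GC box and 9.54% GGCGCC. None of the 5 windows held the AP-1, CRE or palindromic SMAD motif, which were present in 6.87%, 1.62% and 0.174% of all windows. A match or its absence describes these letters alone.

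The first question was which of these signals changed when WT cells received RAS. Bmp2 and the BMP antagonist gene Grem1 rose and Tgfb2 fell in both series. In the S6K1 series Tgfb3 and Bmp4 also fell, and in the S6K1/S6K2 series Inhba and Tgfb1 rose and Id1 fell. A gene was called at an adjusted p under 0.05 in edgeR's quasi-likelihood test, with Benjamini-Hochberg adjustment over all genes tested. In the S6K1 series 5 of the 10 genes were called, 2 higher (Bmp2 and Grem1) and 3 lower (Tgfb2, Tgfb3 and Bmp4), where 13.2% of the 14036 genes tested were called, 7.15% higher and 6.09% lower. With the replicate number as a block, which compares cultures from the same embryos, 8 of the 10 were called (3 higher, 5 lower) and 36.2% of all genes. In the S6K1/S6K2 series 6 of the 10 were called, 4 higher and 2 lower, against 26.3% of 13881 genes (13.5% higher, 12.7% lower), and with the WT culture as a block 5 of the 10 and 30.0% of all genes.

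Among the TGF-beta ligands, Tgfb2 (chromosome 1, minus strand, 188447065 to 188529871 in NCBIM37) changed most. Its level in S6K1 WT EV was 54.4, 53.5 and 110.6 CPM in replicates 1 to 3, and in WT RAS it was 6.82, 7.31 and 20.3 CPM. The groups did not overlap, and replicate 3 was the highest culture under both vectors. The level was 6.33-fold lower with RAS (log2 fold change -2.66 ± 0.54 (SE), edgeR adjusted p = 0.0118). Without WT RAS replicate 2 the change was -2.41 and the edgeR adjusted p 0.0568. Tgfb2 in the S6K1/S6K2 series went from 267, 178 and 144 CPM in WT EV to 21.3, 13.9 and 25.4 in WT RAS. That was 9.69-fold lower (log2 fold change -3.28 ± 0.39, edgeR adjusted p = 0.00053), and the groups again did not overlap. Without WT EV replicate 1, the highest culture, the log2 fold change was -2.99 (edgeR adjusted p = 0.000792). The small RNA gene SNORA70 overlaps Tgfb2 on the other strand.

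Tgfb3 (chromosome 12, minus strand, 87397694 to 87419991) is the isoform best known from palate and lung development. Its S6K1 levels were 309, 239 and 325 CPM in WT EV and 109, 101 and 178 in WT RAS, with no overlap. The log2 fold change was -1.17 ± 0.23 (edgeR adjusted p = 0.00968). S6K1/S6K2 cultures had Tgfb3 at 274, 254 and 306 CPM in WT EV and 247, 218 and 220 in WT RAS, all 3 RAS cultures below the EV cultures but by a small margin. There the log2 fold change was -0.28 ± 0.16 and did not pass the test (edgeR adjusted p = 0.229).

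Tgfb1 (chromosome 7, plus strand, 26472021 to 26490096), the most studied isoform, went the other way. Among S6K1/S6K2 cultures it was 74.7, 63.8 and 64.9 CPM in WT EV and 109, 107 and 103 in WT RAS. The RAS cultures were all higher, by 1.57-fold (log2 fold change 0.65 ± 0.12, edgeR adjusted p = 0.00466, and 0.72 with 0.00525 without WT EV replicate 1). Its levels in the S6K1 series were 103, 79.3 and 68.8 CPM in WT EV and 129, 116 and 94.3 in WT RAS. The groups overlapped, but each RAS culture was above the EV culture of its own number. The log2 fold change of 0.43 ± 0.18 did not pass the edgeR test without the block (adjusted p = 0.173) and passed with it (0.44 ± 0.08, adjusted p = 0.00204).

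Set per kilobase of annotated exon, the 3 TGF-beta genes can be compared as shares of their sum. In S6K1 WT EV, Tgfb1 made up 24.7 ± 5.5% (SD, n = 3) of the summed CPM per kilobase, Tgfb2 11.1 ± 4.1% and Tgfb3 64.2 ± 1.6%. In S6K1 WT RAS the shares were 52.8 ± 11.7% for Tgfb1, 2.71 ± 1.54% for Tgfb2 and 44.4 ± 10.2% for Tgfb3. Tgfb1 thus became the leading isoform in replicates 1 and 2 (60.0% and 59.1%), whereas in replicate 3 Tgfb3 still led (56.2%). For the S6K1/S6K2 series the EV and RAS shares were 17.8 ± 0.4% and 36.7 ± 1.5% for Tgfb1 and 26.9 ± 6.4% and 3.68 ± 1.06% for Tgfb2, while those of Tgfb3 were 55.3 ± 6.6% and 59.6 ± 1.2%. Tgfb3 led in all 3 cultures of both of those groups. In RAS cells without the kinases Tgfb1 made up 41.8 ± 6.9% (S6K1 KO) and 40.7 ± 6.8% (DKO). These shares are a description and were not tested.

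**Figure D1:**
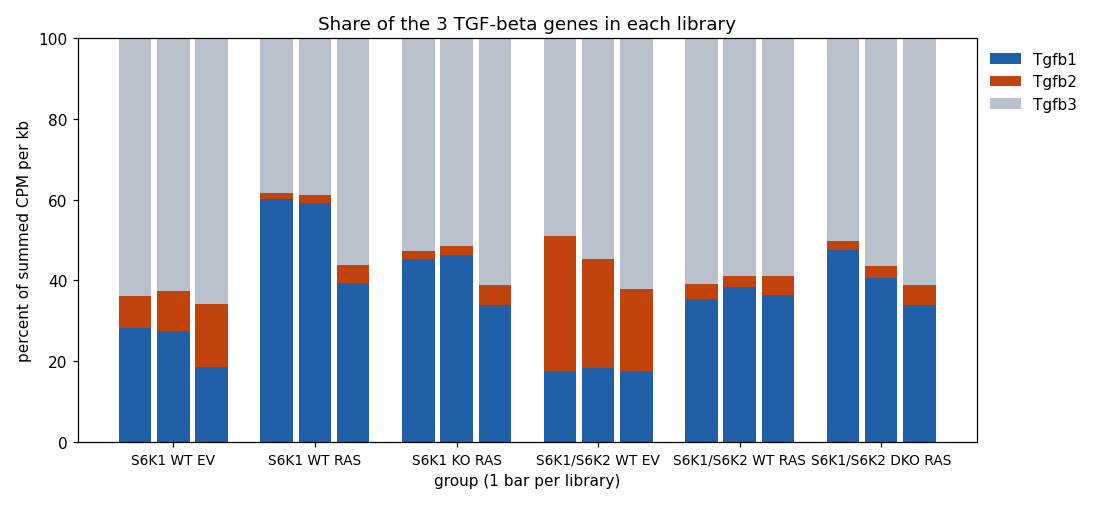
Share of Tgfb1, Tgfb2 and Tgfb3 in their summed level (CPM per kilobase of exon, in percent, vertical axis), with 1 bar per library grouped by condition. The Tgfb2 share is 7.84% to 33.4% in the 6 EV libraries and 1.68% to 4.98% in the 12 RAS libraries.

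Inhba (chromosome 13, plus strand, 16103684 to 16119044) encodes the beta A subunit, whose dimer is activin A. Its level in the S6K1/S6K2 series was 102, 128 and 277 CPM in WT EV and 601, 481 and 506 in WT RAS. Every RAS culture was above every EV culture, by 3.14-fold on average (log2 fold change 1.65 ± 0.38, edgeR adjusted p = 0.0114). Without WT EV replicate 1, the lowest culture, the log2 fold change was 1.39 and the edgeR adjusted p 0.0247. S6K1 cultures had Inhba already at 467, 380 and 347 CPM in WT EV and stood at 496, 457 and 486 in WT RAS. These groups overlapped, and the log2 fold change of 0.27 ± 0.15 did not pass the edgeR test (adjusted p = 0.310, and 0.0553 with the block).

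Fst (chromosome 13, minus strand, 115242470 to 115249159), the activin antagonist gene, did not pass the test with RAS in either series when all libraries were used. Its levels in the S6K1 series were 119, 84.2 and 60.4 CPM in WT EV and 146, 125 and 61.6 in WT RAS. Those in the S6K1/S6K2 series were 50.9, 46.8 and 81.3 CPM in WT EV and 94.5, 85.1 and 73.2 in WT RAS. The groups overlapped in both series. The log2 fold changes were 0.33 ± 0.33 and 0.50 ± 0.24 (edgeR adjusted p = 0.571 and 0.149). In the S6K1/S6K2 series Fst was called without WT EV replicate 3, its highest EV culture (0.80, edgeR adjusted p = 0.0198).

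Bmp2 (chromosome 2, plus strand, 133377895 to 133388621) had the largest difference of the 10 genes in the S6K1 series. It was 1.88, 2.16 and 3.02 CPM in WT EV and 40.3, 59.6 and 50.9 in WT RAS, groups far apart. The level was 21.5-fold higher with RAS (log2 fold change 4.43 ± 0.28, edgeR adjusted p = 0.000102), and by p Bmp2 ranked 7 of all 14036 genes. WT EV cultures of the S6K1/S6K2 series started higher and differed among themselves, with 26.9, 17.4 and 6.81 CPM, and WT RAS cultures reached 67.6, 47.2 and 45.7 CPM. The rise there was 3.14-fold (log2 fold change 1.65 ± 0.38, edgeR adjusted p = 0.0126). Without WT EV replicate 1, the highest culture, the log2 fold change was 2.14 (edgeR adjusted p = 0.00297).

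Bmp4 (chromosome 14, minus strand, 47003195 to 47010344), a close relative of Bmp2 that signals through the same receptors, did not follow it. Bmp4 in the S6K1 series was 62.6, 43.4 and 63.5 CPM in WT EV and 35.0, 24.3 and 24.3 in WT RAS, without overlap. It fell 2.03-fold (log2 fold change -1.02 ± 0.22, edgeR adjusted p = 0.0148). The call was lost without WT EV replicate 3 (-0.93, edgeR adjusted p = 0.0501) or WT RAS replicate 2 (-0.92, edgeR adjusted p = 0.0769). S6K1/S6K2 cultures had it at 73.0, 72.0 and 70.7 CPM in WT EV and 67.2, 57.1 and 51.6 in WT RAS. Its log2 fold change of -0.29 ± 0.12 did not pass the edgeR test (adjusted p = 0.0978), but it did without WT RAS replicate 1 (-0.40, adjusted p = 0.0383). The predicted genes Gm15217 and Gm15222 overlap Bmp4 on the opposite strand, and the libraries were made with a stranded kit.

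Id1 (chromosome 2, plus strand, 152561987 to 152563146) encodes an inhibitor of basic helix-loop-helix factors and is a direct transcriptional target of BMP signalling. Its S6K1/S6K2 levels were 161, 63.9 and 64.7 CPM in WT EV and 33.6, 48.3 and 42.0 in WT RAS. All RAS cultures were lower (log2 fold change -1.23 ± 0.38, edgeR adjusted p = 0.0402). The call did not hold with the culture as a block (-1.09 ± 0.38, edgeR adjusted p = 0.0643) or without WT EV replicate 1 (-0.64, edgeR adjusted p = 0.116), nor without any 1 of the 3 WT RAS libraries (edgeR adjusted p = 0.0825 to 0.107). Id1 in the S6K1 series was 44.6, 35.3 and 30.3 CPM in WT EV and 28.6, 23.6 and 25.5 in WT RAS, again lower in each RAS culture. There the log2 fold change of -0.50 ± 0.19 passed the edgeR test with the block alone (adjusted p = 0.0203, against 0.114 without it).

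Grem1 (chromosome 2, minus strand, 113586321 to 113598803) was the most abundant of the 3 antagonist genes and rose in both series. It went from 704, 534 and 813 CPM in S6K1 WT EV to 1729.7, 1590.0 and 2022 in WT RAS. The rise was 2.60-fold (log2 fold change 1.38 ± 0.19, edgeR adjusted p = 0.00184). Grem1 in the S6K1/S6K2 series was 309, 557 and 699.8 CPM in WT EV and 2035, 3133 and 2349.5 in WT RAS, 4.80-fold higher (log2 fold change 2.26 ± 0.32, edgeR adjusted p = 0.00131). Without WT EV replicate 1, the lowest culture, the log2 fold change was 1.99 (edgeR adjusted p = 0.00158). The groups did not overlap in either series.

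Nog (chromosome 11, minus strand, 89161952 to 89163873) was at the edge of detection, with 3 to 89 counts per library. It was 1.74, 1.27 and 0.915 CPM in S6K1 WT EV and 0.682, 0.233 and 0.642 in WT RAS, and the groups did not overlap. The log2 fold change was -1.34 ± 0.45 (edgeR adjusted p = 0.0844, and 0.0224 with the block). In S6K1/S6K2 WT EV it was 7.76 CPM in replicate 1 against 1.68 and 1.13 in the other cultures, and in WT RAS it was 0.971, 1.19 and 1.02. The log2 fold change there was -1.73 ± 0.67 (edgeR adjusted p = 0.0856), and without replicate 1 of WT EV it was -0.41 (edgeR adjusted p = 0.518). Nog was called there with no filter on low counts (-1.71, edgeR adjusted p = 0.0332), in a fit of all 18 libraries (-1.72, 0.0369) and without WT EV replicate 3 (-2.14, 0.0261).

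**Figure D2:**
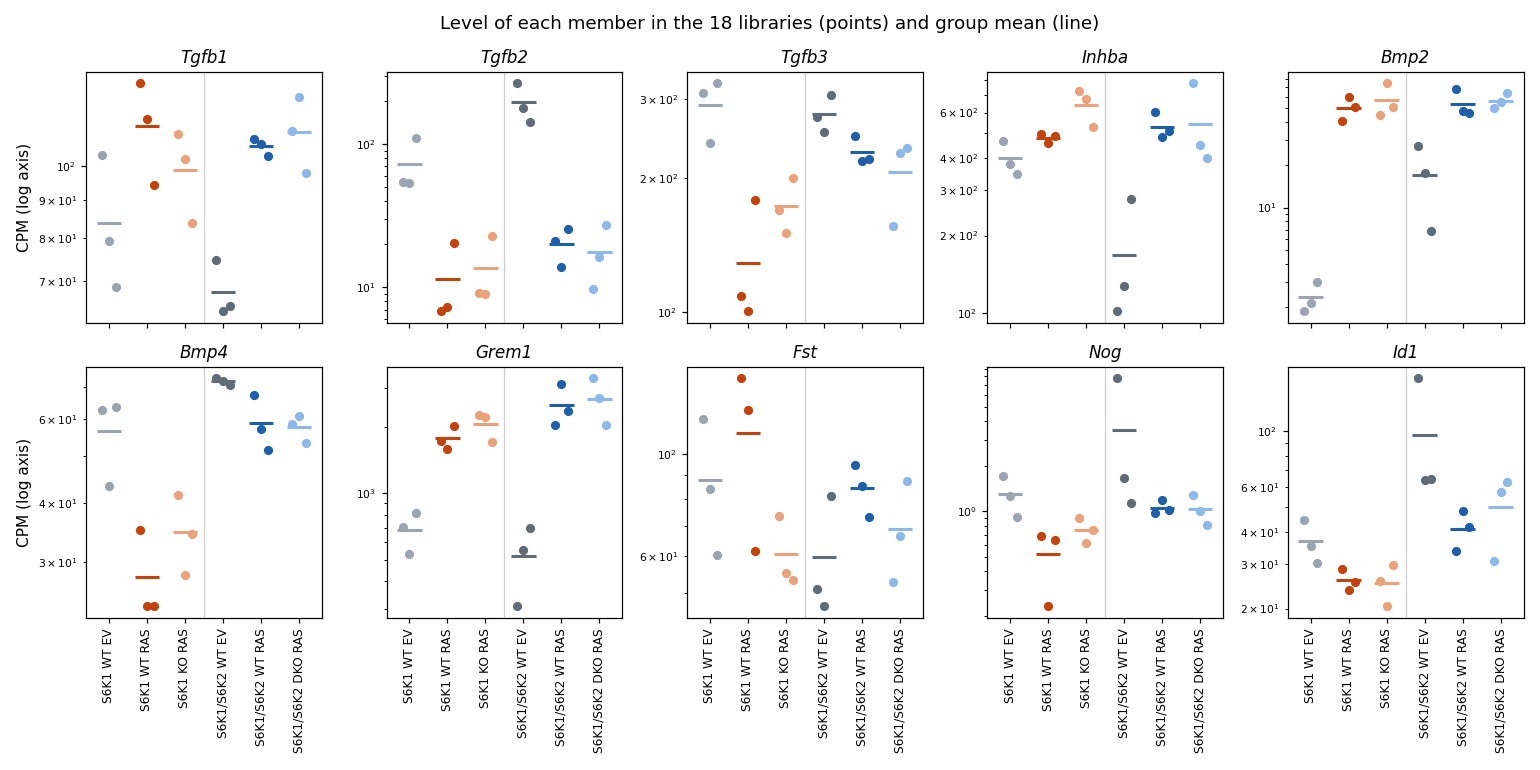
CPM of each gene (vertical log axis, its range set per panel) in the 18 libraries, with 1 point per library, a line at each group mean and replicates 1 to 3 from left to right within a group. Bmp2 lies at 1.88 to 3.02 CPM in S6K1 WT EV and 6.81 to 26.9 CPM in S6K1/S6K2 WT EV, and at 40.3 to 74.4 CPM in all 12 RAS libraries.

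Per kilobase of exon, Grem1 and Inhba had the highest means of the 10 genes in every group. In S6K1 WT EV, Inhba stood at 201 ± 31 CPM per kilobase (SD, n = 3) and Grem1 at 165 ± 34, and their cultures overlapped. In S6K1/S6K2 WT EV, Grem1 (126 ± 48), Inhba (85.2 ± 47.7), Id1 (83.3 ± 48.3) and Tgfb3 (82.1 ± 7.7) overlapped from neighbour to neighbour. With RAS, Grem1 came first in all 4 groups, with means of 429 to 645 CPM per kilobase, then Inhba with 242 to 325, and these did not overlap. Tgfb1, Tgfb3, Fst and Id1 formed a middle range in the RAS groups, from 21.8 to 67.5, in which some neighbours overlapped and others did not. Bmp2 (14.1 to 15.9) lay close to Bmp4 in the S6K1 series (12.5 and 15.6, overlapping) and below it in the S6K1/S6K2 series (25.9 to 26.4, not overlapping). Tgfb2 came ninth in every RAS group (2.37 to 4.17) and Nog last (0.270 to 0.551). In S6K1 WT EV, Bmp2 (0.661 ± 0.167) and Nog (0.679 ± 0.215) shared the lowest place.

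**Figure D3:**
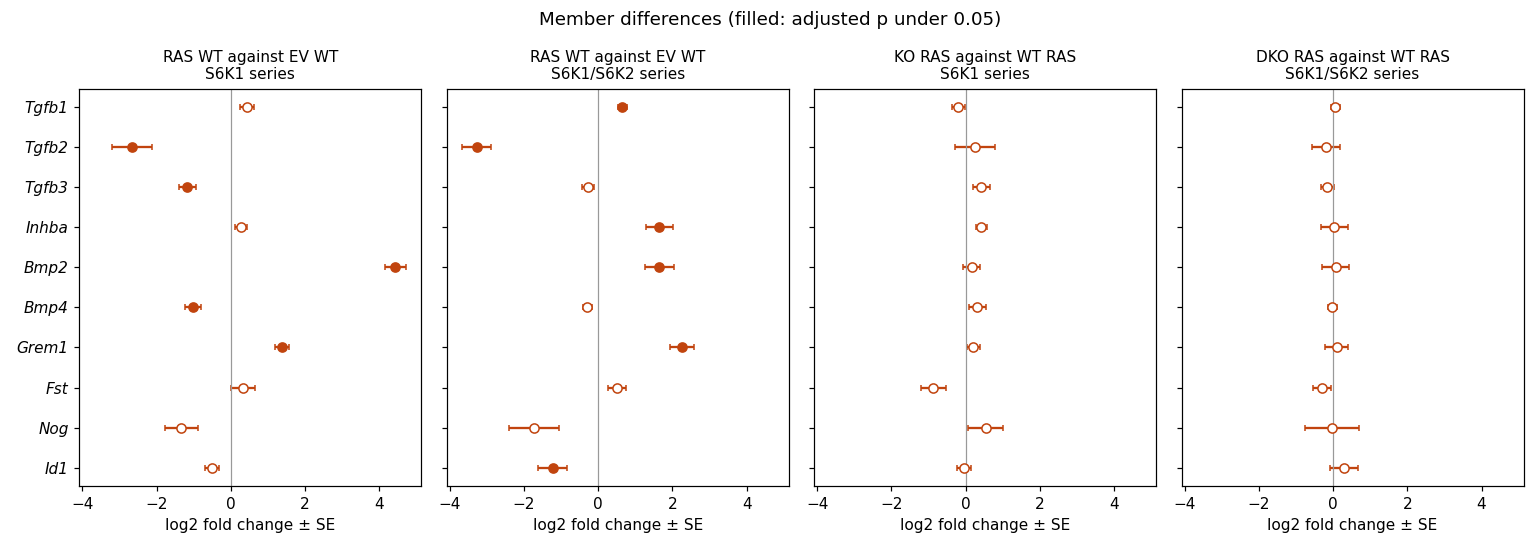
log2 fold change with its SE (horizontal axis) for the 10 genes in the 4 comparisons, filled where edgeR's adjusted p was under 0.05. Filled points are present in both RAS against EV panels, 5 and 6 of them, and in neither panel of kinase loss.

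The other genes of the pathway were followed as 7 lists, whose counts stand beside the 13.2% (S6K1 series) and 26.3% (S6K1/S6K2 series) of all genes called with RAS. Beside the ligands above, 14 of 20 other ligand genes passed the filter in each series, and with RAS 4 rose and 0 fell in the S6K1 series, against 4 that rose and 1 that fell in the S6K1/S6K2 series. Bmp6 and Inhbb, the activin beta B subunit gene, were called in both. Bmp6 rose from 2.02, 2.08 and 1.74 CPM to 7.76, 5.75 and 10.5 in the S6K1 series (log2 fold change 2.03 ± 0.26, edgeR adjusted p = 0.00125). Inhbb rose from 3.84, 23.8 and 46.0 CPM to 176, 184 and 130 in the S6K1/S6K2 series (2.73 ± 0.62, edgeR adjusted p = 0.0110, and 2.22 with 0.00109 without WT EV replicate 1). Bmp7 had 0 counts in all 3 S6K1 WT EV libraries and 0.511, 1.32 and 0.642 CPM in WT RAS, at least 1.82 higher on the log2 scale against a floor of 3 counts per library (edgeR adjusted p = 0.00675). Gdf6 also rose in the S6K1 series (1.53 ± 0.31). Bmp8a rose in the S6K1/S6K2 series (2.94 ± 0.66, and 2.38 without WT EV replicate 1), from at most 5 counts per library in WT EV. Gdf10 (BMP3b) fell in that series from 61.1, 21.3 and 12.4 CPM to 1.94, 1.66 and 1.30 (-4.27 ± 0.77, edgeR adjusted p = 0.00401, and -3.36 with 0.00579 without WT EV replicate 1).

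Of the other antagonist genes tested, 4 of 10 fell in the S6K1 series and 4 of 11 in the S6K1/S6K2 series, none rose, and the same 4 genes were called in both: Chrd, Chrdl1, Bmper and Fstl1. With the block, decorin (Dcn), which binds TGF-beta, rose in the S6K1 series (0.79 ± 0.26 and edgeR adjusted p = 0.0822 without the block, 0.00878 with it). Dcn in the S6K1/S6K2 series changed by -0.73 (edgeR adjusted p = 0.441), and by 0.81 (0.0993) without WT EV replicate 1. Fstl3, which binds activins, rose with the block in the S6K1/S6K2 series (0.76 ± 0.44 and edgeR adjusted p = 0.224 without it, 0.0372 with it). Without WT EV replicate 1 the change of Fstl3 was 0.36 (edgeR adjusted p = 0.407), and in the S6K1 series it was -0.026 (0.923). Both genes were named after their values were seen. Chordin (Chrd), which sequesters BMPs, went from 11.3, 10.1 and 17.6 CPM to 5.54, 4.12 and 4.97 in the S6K1 series (-1.41 ± 0.24, edgeR adjusted p = 0.00459). It went from 29.8, 34.5 and 26.2 CPM to 12.8, 10.5 and 7.03 in the S6K1/S6K2 series (-1.58 ± 0.28, edgeR adjusted p = 0.00370). Its relative Chrdl1 was 4.24, 1.34 and 2.10 CPM in S6K1 WT EV, against at most 5 counts per library in WT RAS (edgeR adjusted p = 0.0168). In the S6K1/S6K2 series Chrdl1 was 39.9, 4.85 and 1.40 CPM against 1.62, 0.713 and 0.185, so WT EV replicate 1 stood far above the rest, and the groups overlapped. There the log2 fold change of Chrdl1 was -4.21 ± 1.28 (edgeR adjusted p = 0.0367), and without that replicate it was -1.91 (0.176). The BMP-binding Bmper fell in both (-1.82 ± 0.34 and -2.04 ± 0.58), and Bmper in the S6K1/S6K2 series was not called with the block (edgeR adjusted p = 0.0576). Without WT EV replicate 1 its change there was -2.51 (edgeR adjusted p = 0.0015). The median log2 fold change of the list was -0.24 and -0.73, beside 0.0018 and -0.024 over all genes tested. Without WT RAS replicate 2 or 3 of the S6K1/S6K2 series, 2 of the list were called there. With 1 library left out, calls over all genes were 2050 to 4199 in that series, against 3646 with all libraries. In the S6K1 series they were 1043 to 1818, against 1859. These ranges stand beside every list count below that leaves out 1 library.

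Among receptor genes 1 rose and 5 fell of 13 in the S6K1 series, and 1 rose and 3 fell of 12 in the S6K1/S6K2 series. Acvr2a, a type II receptor for activins and BMPs, fell in both series, from 113, 115 and 97.2 to 33.8, 37.1 and 43.8 CPM (-1.50 ± 0.14, edgeR adjusted p = 0.00028) and from 141, 106 and 84.8 to 44.0, 50.4 and 49.1 CPM (-1.21 ± 0.17, edgeR adjusted p = 0.0014). Bmpr1a, a type I BMP receptor gene, also fell in both (-0.77 ± 0.18 and -0.57 ± 0.12, edgeR adjusted p = 0.0213 and 0.00670). Bmpr1b fell by 0.66 on the log2 scale in the S6K1 series (edgeR adjusted p = 0.0235), and Bambi, a pseudoreceptor gene, fell by 0.99 in the S6K1/S6K2 series (0.00679). Acvr1b, a type I activin receptor gene, rose in both, by 0.58 ± 0.15 in the S6K1/S6K2 series (edgeR adjusted p = 0.0208, and 0.0512 without WT EV replicate 1). With any 1 of the 6 compared S6K1 libraries left out, 1 to 3 receptor genes were called, and 1043 to 1818 of all genes.

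In the list for latency and activation 4 of 13 fell in the S6K1 series, and 3 rose and 4 fell of 13 in the S6K1/S6K2 series. The microfibril genes Fbn1 and Fbn2 and the latent TGF-beta binding protein gene Ltbp2 fell in both. Their log2 fold changes were -1.82 ± 0.32, -2.74 ± 0.42 and -2.08 ± 0.25 in the S6K1 series and -1.18 ± 0.19, -2.02 ± 0.42 and -1.81 ± 0.26 in the S6K1/S6K2 series. Of the SMADs and their regulators 1 rose and 2 fell of 15 in the S6K1 series, and 5 rose and 4 fell of 15 in the S6K1/S6K2 series. Tgif1, a SMAD corepressor gene, rose in both (0.69 ± 0.18 and 1.10 ± 0.15), Smad6, an inhibitory SMAD gene that BMPs induce, fell in both (-1.73 ± 0.47 and -1.75 ± 0.38), and so did the SMAD corepressor gene Ski (-0.56 ± 0.11 and -0.77 ± 0.13). Smad9 fell in the S6K1/S6K2 series (-1.55 ± 0.41), where its change without WT EV replicate 1 was -1.03 (edgeR adjusted p = 0.0580). Only 1 gene of the SMAD list was called in the S6K1 series without WT EV replicate 2 or 3 or WT RAS replicate 1 or 2, and 5 of the list in the S6K1/S6K2 series without WT RAS replicate 2.

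Although Bmp2 rose, most called BMP target genes fell. Of 12 tested, 7 were called in the S6K1 series, 1 higher and 6 lower, and in the S6K1/S6K2 series 10 of 14, 1 higher and 9 lower, of which 6 were called in both (Atoh8, Id3, Id4, Msx1 and Smad6 lower, Msx2 higher). The medians were -1.29 and -1.35. Atoh8, a BMP-induced transcription factor gene, fell from 9.17, 15.3 and 14.2 to 1.02, 2.57 and 3.05 CPM (-2.53 ± 0.47, edgeR adjusted p = 0.00737) and from 36.3, 26.6 and 27.8 to 2.70, 2.85 and 5.64 CPM (-3.00 ± 0.55, edgeR adjusted p = 0.00428). The homeobox gene Msx1 fell in both (-2.59 ± 0.38 and -2.39 ± 0.37), and so did the Id1 relatives Id3 (-0.86 ± 0.15 and -1.08 ± 0.30, the latter -0.57 without WT EV replicate 1) and Id4 (-2.41 ± 0.32 and -2.84 ± 0.44, the latter -2.31 without WT EV replicate 1). Hey1 fell in the S6K1 series (-2.95 ± 0.59), to at most 8 counts per library in WT RAS, so the size rests on few reads. It was not called in the S6K1/S6K2 series (-1.14, edgeR adjusted p = 0.219). Dlx5 fell in the S6K1/S6K2 series, from 1.74, 1.32 and 2.18 CPM to at most 2 counts per library (edgeR adjusted p = 0.0410, 0.0524 with the block and 0.0616 without WT EV replicate 1). Msx2, a homeobox gene of the same list, was the exception. It rose in the S6K1 series (2.51 ± 0.27) and from 3.84, 5.38 and 13.1 to 41.3, 55.8 and 77.3 CPM in the S6K1/S6K2 series (2.97 ± 0.47, edgeR adjusted p = 0.00204). Without WT RAS replicate 2 or 3, 6 of the list were called in that series.

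Of the TGF-beta and activin targets 7 of 16 fell and none rose in the S6K1 series, where the median was -0.78. In the S6K1/S6K2 series 1 rose and 6 fell of 16, and the median was 0.068. The genes called in both were the collagens Col1a1, Col1a2 and Col3a1 and the cartilage matrix gene Comp. Col1a1 fell from a mean of 12108 to 3237 CPM in the S6K1 series (-1.90 ± 0.20, edgeR adjusted p = 0.00048), and Col3a1 fell in both (-1.87 ± 0.37 and -2.23 ± 0.46). Comp went from 72.6, 32.7 and 14.5 CPM to at most 3 counts per library in the S6K1/S6K2 series (edgeR adjusted p = 0.00154), where Postn also fell (-2.75 ± 0.61, edgeR adjusted p = 0.0104). Without WT EV replicate 1 the edgeR adjusted p of Comp was 0.00233, and Postn changed by -1.82 (0.0171). The fibroblast marker sum, which holds the same collagens, was 45762 to 57135 CPM in the 6 EV libraries and 24082 to 37135 in the 12 RAS libraries, and its part in these counts was not tested. Its markers did not move as 1. In WT means the collagens, Pdgfrb and S100a4 were lower with RAS in both series. Vim (3972 to 5192 and 4523 to 5303 CPM) and Pdgfra (205 to 239 and 169 to 283) were higher in both. Thy1 and Fn1 were lower in the S6K1 series and higher in the S6K1/S6K2 series. The number called was 3 in the S6K1 series without WT RAS replicate 2 and 11 in the S6K1/S6K2 series without WT EV replicate 3.

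With the replicate block, more list genes were called in the S6K1 series, as for all genes (36.2%). The counts there were 9 other ligands (6 higher, 3 lower), 8 receptors (1 higher, 7 lower), 6 other antagonists (1 higher, 5 lower), 7 latency genes (1 higher, 6 lower) and 6 SMADs and regulators (2 higher, 4 lower). Of the targets, 10 of TGF-beta and activin (1 higher, 9 lower) and 10 of BMPs (2 higher, 8 lower) were called. In the S6K1/S6K2 series, where the block called 30.0% of all genes, the counts were 7 other ligands (5 higher, 2 lower), 5 receptors (1 higher, 4 lower), 4 other antagonists (1 higher, 3 lower), 7 latency genes (3 higher, 4 lower) and 9 SMADs and regulators (5 higher, 4 lower). There 8 targets of TGF-beta and activin (2 higher, 6 lower) and 9 of BMPs (1 higher, 8 lower) were called.

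**Figure D4:**
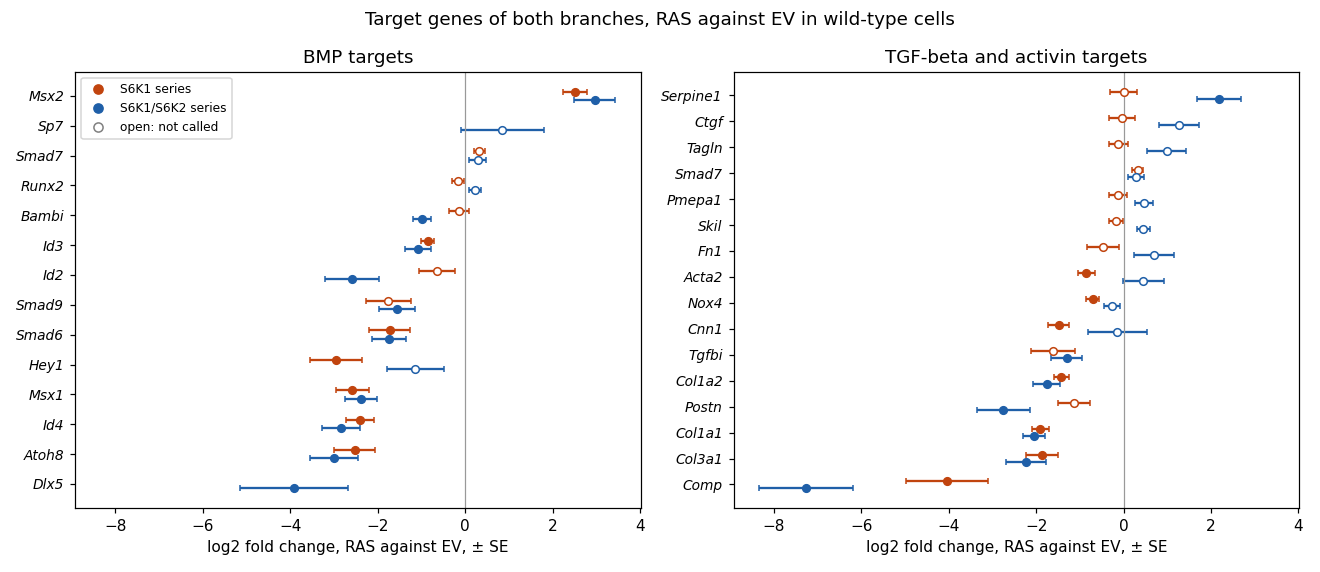
log2 fold change with its SE (horizontal axis) of the BMP targets and of the TGF-beta and activin targets in WT RAS against WT EV, by series, filled where edgeR's adjusted p was under 0.05. Among BMP targets Msx2 is the only filled point above 0, and the 6 and 9 other filled points lie below 0.

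The second question was whether loss of S6K1, or of both kinases, changed these signals in RAS cells. None of the 10 genes was called in either comparison. These comparisons use the same WT RAS libraries as those above. For S6K1 KO, 0 of the 10 genes were called where 0.00712% of 14036 genes were (1 gene), and 2 of the 10 and 963 of all genes had an unadjusted p under 0.05 in edgeR, while DESeq2 called 0 of the 10 and 96 of all genes. With the replicate block, 1 of the 10 (Fst) and 4.15% of all genes were called.

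Fst was 146, 125 and 61.6 CPM in WT RAS, against 73.5, 55.1 and 53.4 in KO RAS. Each KO culture was below the WT culture of its number, although replicate 3 of WT RAS lay within the KO range. The log2 fold change was -0.87 ± 0.33 (edgeR adjusted p = 0.604), and with the block it was -0.80 ± 0.16 (edgeR adjusted p = 0.0185). The macrophage marker sum moved with it, at 3835, 3446 and 751 CPM in the WT cultures against 888, 693 and 251 in the KO cultures, and its part in the Fst values was not tested.

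Inhba was 496, 457 and 486 CPM in WT RAS, against 725, 676 and 529 in KO RAS. All 3 KO cultures were higher, but the log2 fold change of 0.42 ± 0.15 did not pass the edgeR test (adjusted p = 0.588, and 0.0594 with the block). Tgfb3 was 109, 101 and 178 CPM in WT RAS, against 169.6, 150.3 and 200.0 in KO RAS, higher in each KO culture than in the WT culture of its number. Its log2 fold change was 0.42 ± 0.23 (edgeR adjusted p = 0.872, and 0.0615 with the block). The other 7 genes had log2 fold changes from -0.19 (Tgfb1) to 0.54 (Nog), each with overlapping groups, among them Grem1 at 0.21 ± 0.19, Bmp4 at 0.32 ± 0.22, Tgfb2 at 0.25 ± 0.53, Bmp2 at 0.17 ± 0.23 and Id1 at -0.037 ± 0.186. No gene of the 7 pathway lists was called in KO cells without the block. With it, 2 BMP targets were called, chosen here after their values were seen. Id2 was 43.9, 37.1 and 14.2 CPM in WT RAS, against 18.7, 12.3 and 10.2 in KO RAS (edgeR adjusted p = 0.587, and 0.00571 with the block), and Msx1 was 4.18, 2.49 and 5.54 CPM against 10.2, 6.89 and 15.3 (0.587, and 0.00043 with the block). Over these cultures Id2 had the same order as the macrophage marker sum given with Fst, whose part in the Id2 values was not tested.

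In DKO cells no member passed the test. The log2 fold changes ran from -0.29 ± 0.24 (Fst) to 0.29 ± 0.38 (Id1), with Tgfb2 at -0.19 ± 0.37, Tgfb3 at -0.15 ± 0.16, Nog at -0.031 ± 0.717 and Bmp2 at 0.071 ± 0.369. The groups overlapped for all 10 genes, but the share of all genes with such overlap was not computed, so no conclusion is drawn from it. Here 0.0216% of 13881 genes were called (3 genes), none of the 10 had an unadjusted p under 0.05 in edgeR against 179 of all genes, and DESeq2 called 0 of the 10 and 10 of all genes. Tgfb1 was known most closely, at 109, 107 and 103 CPM in WT RAS and 112, 124 and 97.8 in DKO RAS (0.064 ± 0.120). Bmp4 was 67.2, 57.1 and 51.6 CPM in WT RAS and 58.6, 60.7 and 53.4 in DKO RAS (-0.026 ± 0.121). Inhba varied widely within DKO RAS, with 779 CPM in replicate 1 against 448 and 398 in the other cultures, and WT RAS lay between them (0.034 ± 0.365). Grem1 was 2035, 3133 and 2349.5 CPM in WT RAS and 3311, 2685 and 2033 in DKO RAS (0.095 ± 0.307). No gene of the 7 pathway lists was called. A p above the threshold does not show that the levels were equal.

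The third question was whether the RAS response of these genes differed between the series. None of the 10 genes was called in the test of the difference itself, where 0% of 14483 genes were called, 5 of the 10 and 1819 of all genes had an unadjusted p under 0.05, and DESeq2 called 1 of the 10 and 142 of all genes. The gene nearest the threshold was Bmp2, whose log2 fold change was 2.79 ± 0.52 lower in the S6K1/S6K2 series (edgeR adjusted p = 0.0812). With the replicate block the difference was -2.72 ± 0.47 (edgeR adjusted p = 0.0432), and 0.400% of all genes were called. That block also joined the DKO libraries to the WT cultures of the same number, although those numbers do not pair. The WT RAS levels of Bmp2 were alike in the 2 series (50.3 ± 9.6 and 53.5 ± 12.3 CPM, SD, n = 3), and the WT EV levels were not (2.35 ± 0.60 and 17.0 ± 10.1 CPM).

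Inhba had the opposite pattern of EV levels, 398 ± 62 CPM in the S6K1 series and 169 ± 94 in the S6K1/S6K2 series, with 480 ± 20 and 529 ± 63 under RAS. Its difference in log2 fold change was 1.37 ± 0.44 (edgeR adjusted p = 0.275). For Tgfb3 (0.89 ± 0.28), Bmp4 (0.71 ± 0.26) and Grem1 (0.87 ± 0.38) the differences also had an unadjusted p under 0.05 (edgeR adjusted p = 0.275, 0.312 and 0.379). The differences of the other 5 genes were 0.20 ± 0.23 (Tgfb1), -0.62 ± 0.67 (Tgfb2), 0.15 ± 0.45 (Fst), -0.40 ± 0.89 (Nog) and -0.73 ± 0.46 (Id1). The series themselves and a batch of preparation cannot be told apart. For the difference in the effect of kinase loss, 0 of the 10 genes were called against 0.00690% of all genes (1 gene), and none of the 10 had an unadjusted p under 0.05, against 178 of all genes (DESeq2 called 0 of the 10 and 1 of all genes). Those differences, S6K1/S6K2 series minus S6K1 series, were 0.29 ± 0.23 for Tgfb1, -0.42 ± 0.69 for Tgfb2, -0.55 ± 0.28 for Tgfb3, -0.36 ± 0.43 for Inhba and -0.063 ± 0.465 for Bmp2. They were -0.31 ± 0.26 for Bmp4, -0.088 ± 0.382 for Grem1, 0.61 ± 0.45 for Fst, -0.54 ± 0.91 for Nog and 0.35 ± 0.46 for Id1.

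Bmp2 had the largest mean change with RAS of the 3 genes called in both series, so the genes most like it over the 6 groups were sought among 13679. Likeness was the root-mean-square difference of group mean log2 CPM after centring each gene. The 3 closest were Btbd11 (0.41), Stc1 (0.49) and Fam84a (0.50). Stanniocalcin 1 (Stc1), a secreted glycoprotein gene, lay 2.50 below its own mean in S6K1 WT EV and 1.45 above it in S6K1 WT RAS, and 1.46 below and 0.68 above in the corresponding groups of the S6K1/S6K2 series.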

How the data were processed

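RNA-seq libraries (stranded poly(A), single-end reads of MEFs) were counted per gene by the authors, and the deposited values are raw counts with no normalization. The submitters' processing notes name CASAVA, STAR 2.7.1a, DESeq2 1.28.1 and mm10, whereas the study's methods name TopHat, mm9 and HTSeq, so the build behind the counts is not settled. Gene positions and exon lengths are those of GENCODE on NCBIM37, matched by identifier, and promoters are RefSeq's on GRCm38.p6.

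Each series was fitted over its 9 libraries with edgeR 4.0.16 (R 4.3.3, limma 3.58.1), using TMM factors, filterByExpr with a minimum count of 10, the quasi-likelihood test (two-sided) and Benjamini-Hochberg adjustment at 0.05. The SE of a log2 fold change was its size divided by the square root of F. Differences between series were contrasts over all 18 libraries. Alternatives were DESeq2 1.42.0, other scalings and filters, other sets of libraries, each library left out, and the replicate number as a block.

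The numbers pair the S6K1 cultures (littermates, correlations of deviations 0.393 to 0.692 for every pair) and WT cultures of the S6K1/S6K2 series (0.293 to 0.366). No 2 replicates agreed within sampling noise (lowest chi-square per degree of freedom 8.62). P-values measure the spread between these cultures. Depth was 8319445 to 14402442 counts per library, so 3 counts equal 0.208 to 0.361 CPM, and such floors cover counting error only.

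All 10 genes were named in every comparison. From each pathway list up to 3 called genes with the largest absolute log2 fold change were named per comparison, and genes called in both series were listed. The genes and lists were chosen with earlier results of these data known. Of the listed genes Gdf1 was not matched. The scripts were tested on simulated data.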

Additional observations from a re-analysis of the deposited data

How the results depend on the processing

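Of the genes called with RAS, Bmp2 and Grem1 (both series), Tgfb3 (S6K1 series) and Tgfb2, Inhba and Tgfb1 (S6K1/S6K2 series) kept direction and call under every alternative run. In the S6K1 series 8 of the 10 genes were called with the replicate block instead of 5, and 3 to 5 with 1 library left out (3 without WT RAS replicate 2). In the S6K1/S6K2 series 5 to 8 were called with 1 library left out, against 6. For S6K1 KO the block gave 1 call instead of 0. For the difference of the RAS effect between series, DESeq2 and the block each gave 1, no filter gave 2, and leaving out 1 library gave 0 to 2 (2 without S6K1/S6K2 WT EV replicate 3), against 0. Id1, called in the S6K1/S6K2 series, also lost its call in a fit of the 6 compared libraries (edgeR adjusted p = 0.0578). The block changed no other count of the 10 genes by over 1.5 times. The DKO cells came from other mothers than the WT cells of their series, so their numbers do not pair. The correlations (0.279, 0.454 and -0.0351) alone would not settle this, as WT pairs of that series had 0.293 to 0.366. With these numbers as a block, 0 of the 10 were called for DKO. The block for differences between series joined these numbers too. The cause of these changes was not tested.

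Counts over all genes moved further. With RAS they were 1859 in the S6K1 series (5085 with the block, 1043 to 1818 with 1 library left out) and 3646 in the S6K1/S6K2 series (2050 to 4199 with 1 left out). For S6K1 KO the count was 1 (96 by DESeq2, 108 with no filter, 583 with the block, 4 in a fit of all 18 libraries, 0 with the 6 compared libraries, 0 to 22 with 1 left out). For DKO it was 3 (10, 11, 8 and 7 in the first 4 of these, 1 to 2 with 1 left out), and for the difference of the RAS effect 0 (142, 204 and 58 in the first 3, 0 to 290 with 1 left out).

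Directions turned where log2 fold changes were small and not called. With 1 library left out they ranged, for S6K1 KO, from -0.35 to 0.95 (Tgfb2), -0.085 to 0.30 (Bmp2) and -0.17 to 0.097 (Id1). For DKO they ranged from -0.026 to 0.15 (Tgfb1), -0.64 to 0.10 (Tgfb2), -0.25 to 0.012 (Tgfb3), -0.32 to 0.22 (Inhba), -0.031 to 0.28 (Bmp2), -0.11 to 0.084 (Bmp4), -0.086 to 0.29 (Grem1) and -0.21 to 0.12 (Nog). For the difference of the RAS effect the ranges were -1.04 to 0.058 (Tgfb2), -0.15 to 0.44 (Fst) and -0.81 to 0.91 (Nog). For the difference of the loss effect they were -1.10 to 0.17 (Tgfb2), -0.21 to 0.18 (Bmp2, and 0.0069 with the replicate block) and -0.29 to 0.11 (Grem1). Scaling by total count or by TMM over all 18 libraries, the latter added after the data were seen, changed the group mean levels by factors of 0.966 to 1.04. Nog, with 3 to 89 counts per library, was the gene most limited by depth.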

Other observations

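The ratio of Inhba counts to Fst counts, a ligand gene to its antagonist gene, was computed after the values were seen. S6K1 WT EV cultures had 3.91, 4.51 and 5.75, S6K1 WT RAS cultures 3.39, 3.66 and 7.89, and S6K1 KO RAS cultures 9.87, 12.3 and 9.90, so every KO culture lay above every WT culture of that series. S6K1/S6K2 WT EV cultures had 1.998, 2.73 and 3.40, WT RAS cultures 6.36, 5.65 and 6.92, and DKO RAS cultures 14.8, 6.76 and 4.56, where DKO and WT RAS overlapped. The ratio of Grem1 counts to Bmp4 counts was 11.3 to 12.8 in S6K1 WT EV and 4.24 to 9.90 in S6K1/S6K2 WT EV, against 30.3 to 83.2 in the 12 RAS libraries. The ratio of Grem1 to Bmp2 counts went the other way in the S6K1 series, with 248 to 375 under EV and 26.7 to 42.9 under RAS in WT cells, and in S6K1/S6K2 WT cells it spanned 11.5 to 103 under EV and 30.1 to 66.4 under RAS. None of these ratios was tested.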
